A study of Mus musculus with 12 samples.

Results

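The genes described here encode early components of the complement cascade (C1qa, C1qb, C1qc, C4b and C3) and the inhibitor of its first enzymes (Serping1). Others encode an activating Fc receptor with its signalling adaptor (Fcgr3 and Fcer1g) and an adaptor of other receptors (Tyrobp). These 9 genes were taken by symbol from a table of 41743 genes measured by RNA-seq in whole mouse hippocampus. They were chosen for their roles and selected on their measured RPKM, since Fcer1g and Serping1 were lower in exposed animals in these same libraries. For that reason the differences between exposed and control libraries are given for these genes as a description, without a test.

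The exposed group, called toxicant, had 6 libraries from male C57Bl/6 mice, 12 weeks old. These mice received a mixture under the skin on weekdays for 2 weeks: 2.5 mg/kg pyridostigmine bromide (a reversible cholinesterase inhibitor), 12.5 mg/kg chlorpyrifos (an organophosphate insecticide) and 7.5 mg/kg DEET (an insect repellent). The control group, of the same strain, sex and age, received vehicle and had 6 deposited libraries, of which controls 4 and 5 carried the same number for each gene. That identical pair was counted as 1 sample, control 4-5, which left 5 control libraries. Hippocampi were collected when the exposure ended, and the labels describe different mice within each group. In whole tissue, fewer cells of a type and less RNA per cell cannot be told apart.

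In the brain, C1q is made mostly by microglia, the resident macrophages, and is built from the chains A, B and C. Bound C1q activates the proteases C1r and C1s, which cleave C4 and C2 and lead to cleavage of C3, and fragments of C3 mark surfaces for uptake through complement receptors. In the developing mouse brain this route tags synapses that microglia remove. Fc receptors bind the constant part of antibodies. The adaptors encoded by Fcer1g and Tyrobp carry a tyrosine-based activation motif (ITAM) that recruits the kinase Syk, and Fcer1g is needed for surface expression of the activating IgG receptors of the mouse.

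Libraries held 21.5 to 28.4 M reads in the toxicant group and 24.95 to 34.85 M reads in the control group. The share of these reads on annotated genes was 80.8% ± 2.68 (SD, n = 6) in toxicant libraries and 85.4% ± 4.58 (SD, n = 5) in control libraries. Control 2 (78.4%) was the lowest control by this measure and lay inside the toxicant range of 76.8% to 83.8%. Control 2 was also the lowest control for 8 of the 9 genes described here, and for 51.6% of all tested genes. Values are RPKM, reads per kilobase of gene model scaled to the depth of the library. Differences are toxicant minus control on the log2(RPKM + 0.5) scale, which understates the change of genes near or under 0.5 RPKM.

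Across the 13493 genes that averaged 0.5 RPKM or more, limma called 0 genes lower (0.0%) and 0 genes higher (0.0%) at a Benjamini-Hochberg adjusted p under 0.05. At an unadjusted p under 0.05, 2288 genes were lower (17.0%) and 449 higher (3.33%). The median log2 difference over these genes was -0.11, and 70.0% of them had a lower mean in toxicant libraries. All 9 genes described here had a lower mean in toxicant libraries, also after median-ratio scaling, which brought the median of all genes to 0.00135, but not with the covariates given further on. Of these, 8 passed the filter on low values and C3 did not. In every toxicant library 274 genes lay below every control (2.03%), and 15 lay above every control (0.111%). Fcer1g was the single gene of the 9 among those 274, and since it was chosen for being lower, nothing is read from this. After median-ratio scaling the counts were 94 lower (0.696%) and 54 higher (0.4%), after quantile normalization 148 lower (1.1%) and 50 higher (0.371%), and Fcer1g was among the lower each time.

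By level, the 9 transcripts covered a wide range. C1qa was the highest at a mean of 29.4 RPKM over the 11 libraries, followed by C1qb at 24.9 RPKM and C1qc at 14.3 RPKM. Tyrobp (7.85 RPKM), Fcer1g (3.92 RPKM), C4b (3.82 RPKM), Fcgr3 (3.41 RPKM), Serping1 (1.17 RPKM) and C3 (0.119 RPKM) came after them. The order C1qa, C1qb, C1qc and Tyrobp was the same in all 11 libraries. Fcer1g exceeded C4b in only 6 of the 11 libraries, and C4b exceeded Fcgr3 in 8, so these 3 neighbours were not separated by level.

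The chains of C1q were somewhat lower on average in toxicant libraries, with groups that overlapped. C1qa, which encodes the A chain, ranged from 23.3 to 31.8 RPKM in toxicant libraries with a median of 27.1 RPKM. In controls 1, 2, 3, 4-5 and 6 it was at 39.1, 21.6, 34.5, 30.1 and 35.8 RPKM. Control 2 lay below every toxicant library, while 3 of the 5 controls lay above every toxicant library. C1qa averaged 27.0 ± 3.20 RPKM in toxicant and 32.2 ± 6.75 RPKM in control libraries (SD, n = 6 and n = 5), a log2 difference of -0.23 ± 0.14 (SE).

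C1qb, the B chain gene, ranged from 17.9 to 25.9 RPKM in toxicant libraries (median 23.3 RPKM) and was at 33.1, 20.5, 29.8, 24.0 and 29.2 RPKM in controls 1, 2, 3, 4-5 and 6. Its log2 difference was -0.24 ± 0.13 (SE). C1qc, the C chain gene, ranged from 11.5 to 15.0 RPKM in toxicant libraries (median 13.7 RPKM) and was at 19.3, 11.6, 16.6, 14.3 and 16.2 RPKM in the same controls, with a log2 difference of -0.21 ± 0.12 (SE). As for C1qa, controls 1, 3 and 6 stood above every toxicant library for both genes. The mean of each chain in toxicant libraries came to 83.9% (C1qa), 83.8% (C1qb) and 85.2% (C1qc) of its control mean. Relative to the median of all tested genes, the 3 log2 differences were -0.12, -0.13 and -0.10.

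The mean proportions of the 3 chains were alike in the groups, while single libraries differed. The ratio of C1qb to C1qa was 0.848 ± 0.0789 in toxicant and 0.854 ± 0.0594 in control libraries (SD, n = 6 and n = 5). The ratio of C1qc to C1qa was 0.493 ± 0.0229 in toxicant and 0.488 ± 0.0312 in control libraries. Over single libraries the ratio of C1qb to C1qa ran from 0.750 to 0.933 in toxicant and from 0.795 to 0.949 in control libraries, so the groups overlapped, and they did for C1qc to C1qa as well.

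**Figure D1:**
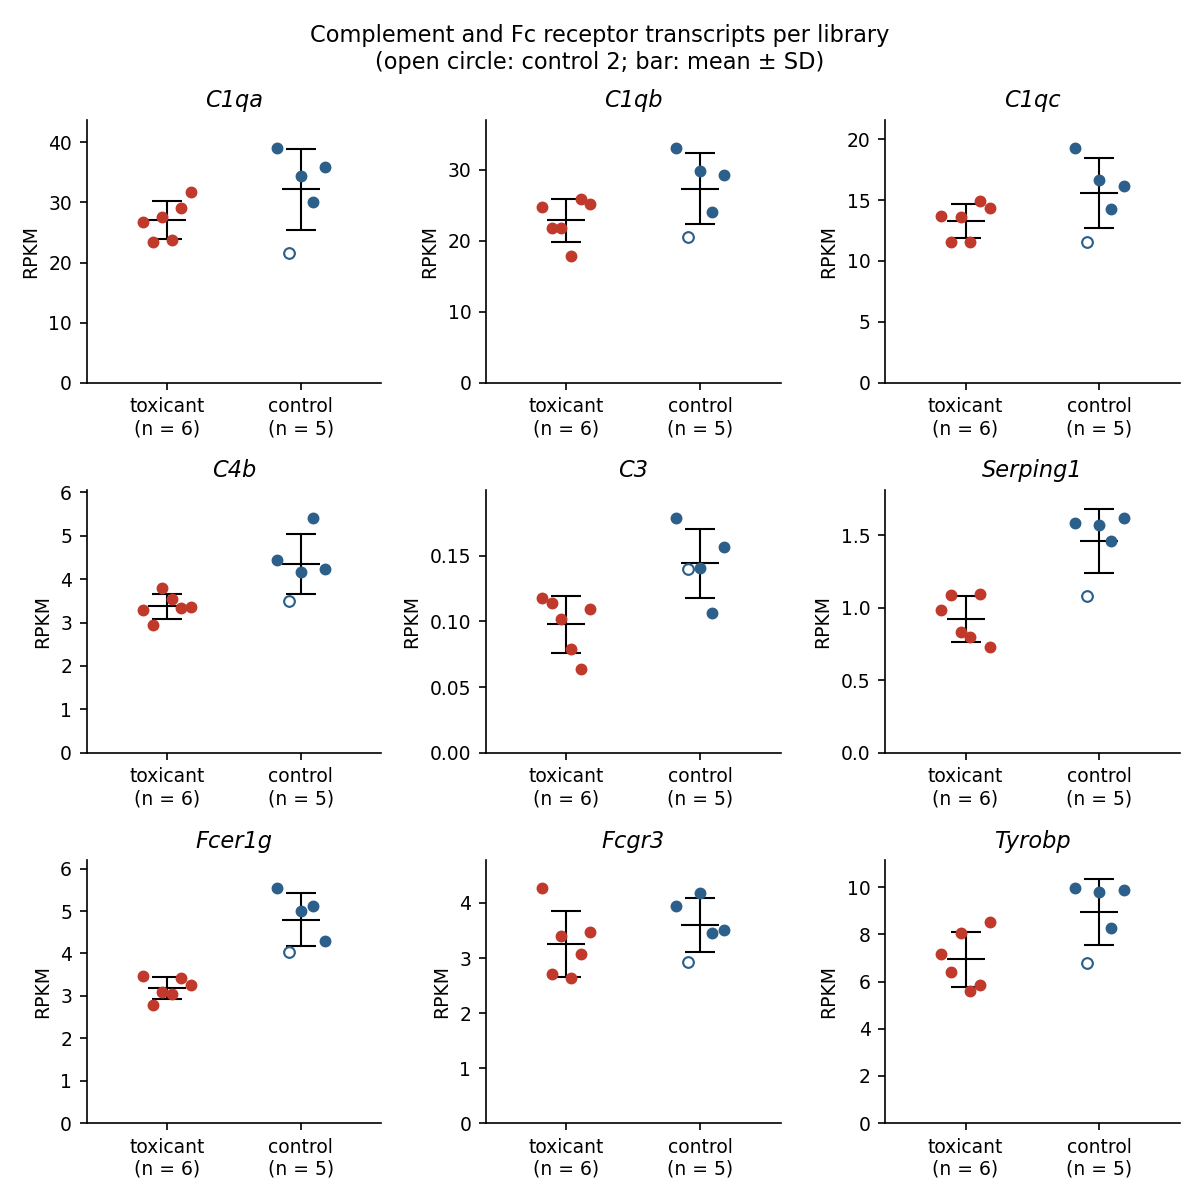
RPKM per library for each of the 9 genes, with the 6 toxicant libraries to the left of the 5 control libraries in each panel (points), the group mean and SD (bars) and control 2 as an open circle; each vertical axis starts at 0. Fcer1g is the panel in which all toxicant libraries lie below all controls, and control 2 is the lowest control in every panel except that of C3.

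The C1q genes lie side by side on the minus strand of chromosome 4 in GRCm38 (GENCODE M21), C1qb from 136880129 to 136886187, C1qc from 136889804 to 136893065 and C1qa from 136895917 to 136898803. Since they lie side by side and C1qb and C1qc varied together between animals, as given further on, the promoters of C1qb and C1qc are shown for comparison (RefSeq, GRCm38.p6, minus strand, 250 bases before to 50 after the start). They lie at chr4:136886151-136886450 and chr4:136892865-136893164. Capitals mark the letters GAGGAA, a core bound by the myeloid factor PU.1, on either strand (TTCCTC on the other).
C1qb: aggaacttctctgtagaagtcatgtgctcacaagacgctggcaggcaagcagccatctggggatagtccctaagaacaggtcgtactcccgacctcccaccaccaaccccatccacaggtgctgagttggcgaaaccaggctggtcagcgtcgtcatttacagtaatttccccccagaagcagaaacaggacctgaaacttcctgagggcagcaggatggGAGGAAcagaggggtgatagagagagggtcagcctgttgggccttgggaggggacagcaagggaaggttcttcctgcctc
C1qc: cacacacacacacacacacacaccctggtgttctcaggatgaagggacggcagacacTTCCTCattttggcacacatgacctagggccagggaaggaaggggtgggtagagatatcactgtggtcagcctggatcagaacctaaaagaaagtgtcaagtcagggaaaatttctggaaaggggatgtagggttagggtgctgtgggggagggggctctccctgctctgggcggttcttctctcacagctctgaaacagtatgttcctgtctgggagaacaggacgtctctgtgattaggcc
Each held 1 match, and 28.3% of the 32851 promoters of the same length in the table held at least 1. Counted from the start site, the match in C1qb began at position -30 and that in C1qc at position -193.

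The later complement components differed in level and in depth. C4b, which encodes the mouse C4 protein cleaved by C1s, ranged from 2.94 to 3.80 RPKM in toxicant libraries with a median of 3.34 RPKM. In controls 1, 2, 3, 4-5 and 6 it was at 4.44, 3.49, 4.17, 5.41 and 4.23 RPKM. Only toxicant 3 and toxicant 4 reached above control 2, and the other 4 controls lay above every toxicant library. The means were 3.38 ± 0.286 RPKM in toxicant and 4.35 ± 0.690 RPKM in control libraries (SD, n = 6 and n = 5), a log2 difference of -0.31 ± 0.10 (SE).

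C4b lies on chromosome 17 from 34728380 to 34743882. Its close copy C4a, for which reads can be misassigned, was at 0.249 ± 0.0492 RPKM in toxicant and 0.212 ± 0.0640 RPKM in control libraries. C4a was thus far below C4b in level, and its mean was higher in toxicant libraries. The values of C4b are uncertain to the extent that the authors' counting split reads between the copies.

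C3, the component on which all complement routes converge, was close to the detection limit. It had 8 to 16 reads per toxicant library (0.0639 to 0.118 RPKM) and 16 to 28 reads per control library (0.106 to 0.179 RPKM). The 8 reads of toxicant 5 carry an exact Poisson 95% interval of 3.45 to 15.8 reads, and the 28 reads of control 6 one of 18.6 to 40.5 reads. These intervals cover counting error only. The control mean of C3 was 0.144 ± 0.0264 RPKM and the toxicant mean was 67.8% of it, but on the log2(RPKM + 0.5) scale the difference was only -0.11 ± 0.04 (SE from the fit without a filter).

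Serping1 encodes the C1 inhibitor, which inactivates the proteases C1r and C1s. It was at 0.981, 1.09, 0.833, 0.796, 1.10 and 0.728 RPKM in toxicant libraries 1 to 6. In controls 1, 2, 3, 4-5 and 6 it was at 1.58, 1.08, 1.57, 1.46 and 1.62 RPKM. The groups overlapped only through control 2, which lay below toxicant 2 and toxicant 5 and above the other 4 toxicant libraries. The means were 0.920 ± 0.157 RPKM in toxicant and 1.46 ± 0.221 RPKM in control libraries (SD, n = 6 and n = 5).

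That toxicant mean of Serping1 was 63.0% of the control mean, the lowest proportion among the 9 genes. Its log2 difference was -0.46 ± 0.10 (SE), or -0.35 relative to the median of all tested genes. The values rested on 48 to 62 reads per toxicant library and 77 to 131 reads per control library. Serping1 lies on chromosome 2 from 84765387 to 84775444 (minus strand). Its targets C1ra and C1s1 were both under the filter on low values, with means of 34.2 and 15.6 reads per library. C1ra was at 0.393 ± 0.0902 RPKM in toxicant and 0.464 ± 0.161 RPKM in control libraries, and C1s1 at 0.199 ± 0.136 RPKM in toxicant and 0.175 ± 0.0301 RPKM in control libraries.

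Fcer1g encodes the common gamma chain of Fc receptors. It was at 3.46, 2.79, 3.09, 3.05, 3.43 and 3.27 RPKM in toxicant libraries 1 to 6. In controls 1, 2, 3, 4-5 and 6 it was at 5.54, 4.03, 5.00, 5.13 and 4.30 RPKM. Every toxicant library lay below the lowest control, and this was the case for no other gene of the 9. The means were 3.18 ± 0.257 RPKM in toxicant and 4.80 ± 0.619 RPKM in control libraries (SD, n = 6 and n = 5).

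The toxicant mean of Fcer1g was 66.3% of the control mean. Its log2 difference was -0.52 ± 0.09 (SE), or -0.41 relative to the median of all tested genes. The values rested on 54 to 81 reads per toxicant library and 108 to 137 reads per control library. Counting error limits single libraries: the exact Poisson 95% interval was 40.6 to 70.5 reads in toxicant 2 and 88.6 to 130 reads in control 2.

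Fcgr3 encodes a low-affinity activating receptor for IgG that signals through the gamma chain. It ranged from 2.64 to 4.27 RPKM in toxicant libraries with a median of 3.24 RPKM. In controls 1, 2, 3, 4-5 and 6 it was at 3.95, 2.93, 4.18, 3.45 and 3.50 RPKM. The highest value of all belonged to toxicant 1, and the groups overlapped throughout. The log2 difference was -0.13 ± 0.12 (SE), which is -0.02 relative to the median of all tested genes.

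On average the level of the gamma chain relative to its receptor was lower in the toxicant group. The ratio of Fcer1g to Fcgr3 was 0.994 ± 0.130 in toxicant and 1.34 ± 0.123 in control libraries (SD, n = 6 and n = 5). It reached at most 1.15 in toxicant libraries and was at least 1.20 in control libraries. This ratio was formed with Fcer1g already known to be lower, so it is a description as well. Counting error is wide beside the gap between groups. In toxicant 4, which had the ratio of 1.15, the 72 Fcer1g reads carried an exact Poisson 95% interval of 56.3 to 90.7 reads. How often ratios of other gene pairs separate in this way was not counted. The ratio of Fcer1g to C1qa overlapped, at 0.103 to 0.130 in toxicant and 0.120 to 0.186 in control libraries. Against the other ITAM adaptor the separation was not complete, with a ratio of Fcer1g to Tyrobp of 0.384 to 0.586 in toxicant and 0.435 to 0.621 in control libraries.

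**Figure D2:**
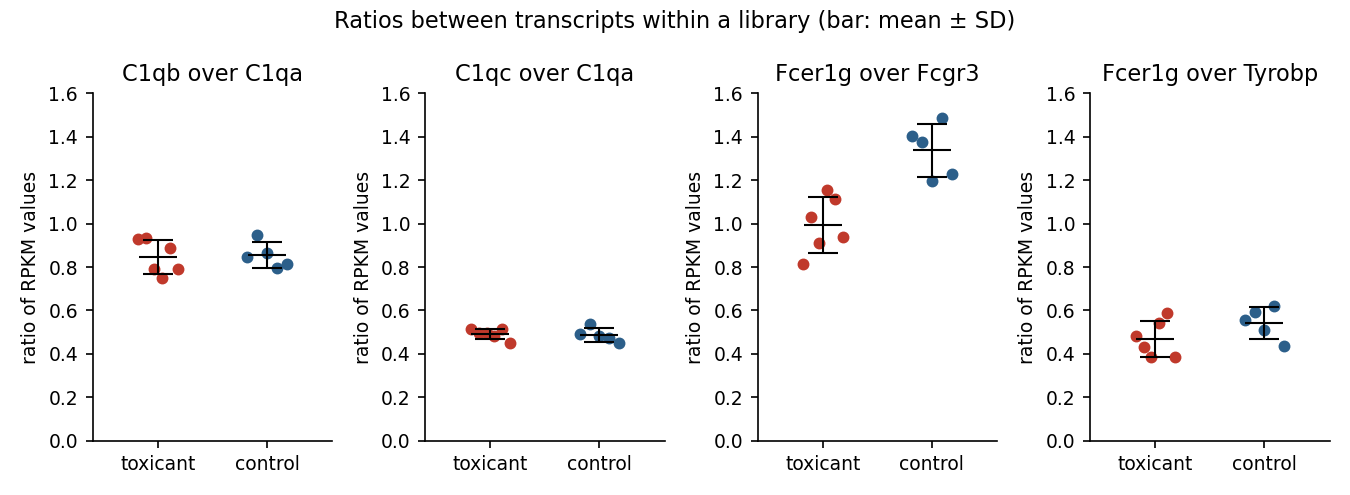
Ratios between RPKM values within a library (points) for toxicant (left) and control (right) libraries, with group mean and SD (bars), on a shared axis from 0. The ratios of the C1q chains overlap between groups, while Fcer1g over Fcgr3 is at most 1.15 in toxicant and at least 1.20 in control libraries.

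Fcer1g (171229572 to 171234365) and Fcgr3 (171051174 to 171064935) lie near each other on the minus strand of chromosome 1. The promoters of this receptor and its gamma chain are shown for comparison (RefSeq, GRCm38.p6, chr1:171234300-171234599 and chr1:171059354-171059653, minus strand). Capitals again mark GAGGAA on either strand.
Fcer1g: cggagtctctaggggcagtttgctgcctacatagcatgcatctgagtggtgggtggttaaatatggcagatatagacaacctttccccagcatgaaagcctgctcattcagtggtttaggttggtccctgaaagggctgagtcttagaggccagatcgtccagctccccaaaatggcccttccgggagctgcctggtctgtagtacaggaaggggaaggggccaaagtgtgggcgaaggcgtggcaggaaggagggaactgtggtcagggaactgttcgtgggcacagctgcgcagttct
Fcgr3: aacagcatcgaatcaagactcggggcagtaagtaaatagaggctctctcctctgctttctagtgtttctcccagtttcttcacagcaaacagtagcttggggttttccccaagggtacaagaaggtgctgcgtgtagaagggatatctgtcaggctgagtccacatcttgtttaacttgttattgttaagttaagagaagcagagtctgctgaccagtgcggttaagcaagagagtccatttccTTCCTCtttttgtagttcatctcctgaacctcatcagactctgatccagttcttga
The Fcgr3 window shown held 1 match, which began at position -6, and the Fcer1g window held none of these letters. Counted from another RefSeq start of Fcgr3, whose window is not shown, the match began at position -15. Both Fcgr3 windows lie inside the gene span given above. A STAT element (TTCNNNGAA, in 8.30% of promoters), an AP-1 element (TGACTCA, 5.20%), and, by name, the cores of an interferon-stimulated element (3.44%) and of an NF-kB element (0.155%) were searched on both strands. None of them was found in the windows of Fcer1g, Fcgr3, C1qb, C1qc or C3, the 5 genes of the 9 that matched the table. C1qa, C4b, Serping1 and Tyrobp were not matched.

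Tyrobp encodes the ITAM adaptor DAP12, the partner of the microglial receptor TREM2. It ranged from 5.60 to 8.51 RPKM in toxicant libraries with a median of 6.81 RPKM. In controls 1, 2, 3, 4-5 and 6 it was at 9.95, 6.79, 9.79, 8.26 and 9.89 RPKM. Controls 1, 3 and 6 lay above every toxicant library, while control 2 lay in their midst. The means were 6.94 ± 1.18 RPKM in toxicant and 8.94 ± 1.39 RPKM in control libraries (SD, n = 6 and n = 5), a log2 difference of -0.34 ± 0.13 (SE). Trem2 itself had a log2 difference of -0.28 ± 0.13 (SE) and did not pass the test (limma adjusted p = 0.245). Tyrobp lies on chromosome 7 from 30413760 to 30417585.

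The genes also varied between animals of the same group. This was measured on log2 values after subtraction of the group mean, over 11 libraries and 54 relations, with exact permutation within groups (86400 orders, two-sided) and Benjamini-Hochberg adjustment over the 54. Of the 36 pairs of genes, 34 correlated positively, with a median Pearson r of 0.50, and 4 pairs passed. These were the 3 pairs of C1q chains and the pair of C1qa and Tyrobp. C1qb and C1qc had an r of 0.934 (exact permutation p = 1.16e-05, the smallest these orders can give, adjusted p = 0.000625) and a Spearman rho of 0.988 (exact permutation p = 1.16e-05). Their r was 0.880 without controls 1 and 2. The r of C1qa with C1qc was 0.957 (exact permutation p = 0.000324, adjusted p = 0.00453) and with C1qb 0.885 (exact permutation p = 0.000914, adjusted p = 0.00823), and their rho passed as well. Many other genes were at least as close: among 12297 tested genes ranked by r with C1qa, C1qc stood at rank 234, C1qb at rank 2165 and Tyrobp at rank 3952.

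C1qa and Tyrobp had an r of 0.788 (exact permutation p = 0.00620, adjusted p = 0.0305) and a rho of 0.796 (exact permutation p = 0.00639, adjusted p = 0.0452). The r was 0.568 without control 2 and toxicant 4. Fcer1g followed Fcgr3 with an r of 0.688 (exact permutation p = 0.0176, adjusted p = 0.0560) and a rho of 0.683 (exact permutation p = 0.0358, adjusted p = 0.102), which did not pass, and an r of 0.692 without control 3 and toxicant 1. For Fcer1g and Tyrobp the r was 0.378 (exact permutation p = 0.282, adjusted p = 0.411) and the rho 0.273 (exact permutation p = 0.434), and r was -0.03 without control 2 and toxicant 4. For Serping1 and C4b the r was 0.115 (exact permutation p = 0.745, adjusted p = 0.788) and the rho -0.174 (exact permutation p = 0.622), and r was -0.634 without control 2 and toxicant 6.

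Within groups the C1q genes tracked the share of reads on genes. How many of all tested genes track this share was not counted, so the relation is not shown to be particular to these genes. C1qa had an r of 0.919 with the share, and many other genes were at least as close to C1qa as C1qb was, as given above. For C1qb the r with that share was 0.953 (exact permutation p = 0.000220, adjusted p = 0.00453) and the rho 0.896 (exact permutation p = 0.00146), and r was 0.892 without control 2 and toxicant 4. For Fcgr3 the r was 0.842 (exact permutation p = 0.000336, adjusted p = 0.00453) and the rho 0.901 (exact permutation p = 0.000336), and r was 0.751 without the same libraries. Fcer1g had an r of 0.682 (exact permutation p = 0.0512, adjusted p = 0.111) and a rho of 0.677 (exact permutation p = 0.0506), and r was 0.473 without them. Serping1 had an r of 0.556 (exact permutation p = 0.0984, adjusted p = 0.183) and a rho of 0.394 (exact permutation p = 0.245), and r was -0.05 without them.

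**Figure D3:**
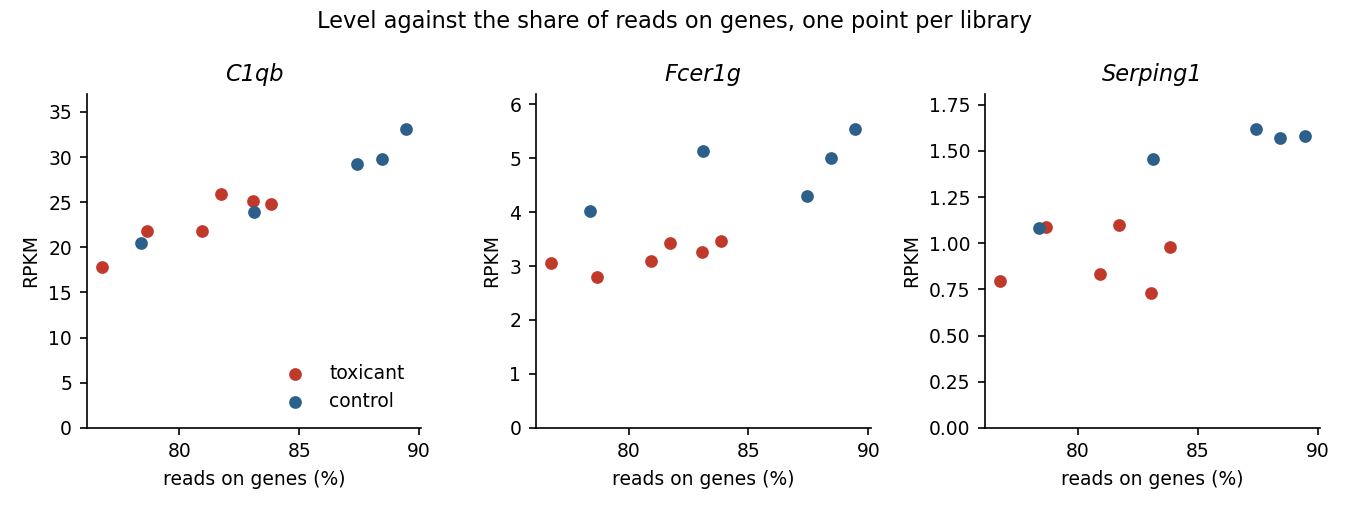
RPKM of C1qb, Fcer1g and Serping1 (vertical axes from 0) against the percentage of reads on genes (horizontal axes), with 1 point per toxicant or control library. The toxicant libraries have shares of 76.8% to 83.8% and the controls 78.4% to 89.5%, and the groups overlap in level for C1qb and Serping1 and not for Fcer1g.

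Between groups this share moved in the same direction as the 9 genes, and its part in their differences was not tested beyond the following fit. With it as a covariate the log2 difference was 0.06 ± 0.07 (SE) for C1qa, 0.03 ± 0.06 for C1qb, 0.03 ± 0.06 for C1qc and 0.08 ± 0.08 for Fcgr3. It was -0.40 ± 0.08 (SE) for Fcer1g, -0.35 ± 0.11 for Serping1, -0.27 ± 0.11 for C4b and -0.12 ± 0.09 for Tyrobp, beside a median of -0.03 over all tested genes. The sign of the differences of C1qa, C1qb, C1qc and Fcgr3 was thus opposite with the covariate, but each of these values was smaller than its SE. The sign for Fcer1g, Serping1, C4b and Tyrobp was not opposite.

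Genes most like 3 of the members in this within-group variation were ranked by Pearson r among 12297 tested genes, with provisional gene names left out. They were picked as the highest, so no test is given. C1qa was closest to Polr1d (r = 0.994), Mrps26, Polr2g, Cox6c and Fbxo9 (r = 0.987). Fcer1g was closest to Pla2g7 (r = 0.925), Prdx6, Pars2, Sdc4 and St3gal4 (r = 0.908), with C1qc at rank 292 and Tyrobp at rank 5933. Serping1 was closest to Dhx29 (r = 0.933), Rbms2, Ccnjl, Rn7s1 and Bcar3 (r = 0.864), and its nearest gene of the 9 was C1qb at rank 818. None of the 9 was among the nearest 5 of Fcer1g, Serping1 or C1qa. All these libraries share the variation in reads on genes described above.

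Markers of immune cells were read from lists of 18 microglial, 10 border macrophage and 12 blood leukocyte genes. All 18 microglial markers were detected in every library, and their summed level was 99.9 to 124 RPKM in toxicant and 126 to 154 RPKM in control libraries, without overlap. Of these 18 genes 17 had a lower mean in toxicant libraries, with a median log2 difference of -0.25, and 14 lay below the median of all tested genes. None passed limma's adjusted threshold, and 11 were lower and 0 higher at an unadjusted p under 0.05, beside 17.0% lower and 3.33% higher among all tested genes, of which 70.0% had a lower mean. The protease gene Ctss was at 20.3 ± 1.58 RPKM in toxicant and 24.5 ± 1.42 RPKM in control libraries.

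Border macrophage markers summed to 1.30 to 1.83 RPKM in toxicant and 1.65 to 2.31 RPKM in control libraries. Of these 10 only Stab1 passed the filter (0.862 ± 0.0806 RPKM in toxicant and 0.837 ± 0.0520 RPKM in control libraries), and Pf4 averaged 5.55 reads per library. None of the 12 leukocyte markers passed it, and their sum was 0.252 to 0.374 RPKM in toxicant and 0.153 to 0.659 RPKM in control libraries. The highest of these, S100a9 and S100a8, averaged 1.36 and 1.27 reads per library. No marker of these lists was at 0 in every library.

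With the mean log2 level of the microglial markers as a covariate, the log2 difference was 0.25 ± 0.16 (SE) for C1qa, 0.21 ± 0.15 for C1qb, 0.20 ± 0.14 for C1qc, 0.22 ± 0.15 for Fcgr3 and 0.08 ± 0.15 for Tyrobp. It was -0.30 ± 0.12 (SE) for Fcer1g, -0.32 ± 0.17 for Serping1 and -0.14 ± 0.15 for C4b, and the median over all tested genes was 0.02. The summed marker level did not overlap between groups, as given above, so this fit can only partly separate marker level from group. Within groups, this marker level correlated with C1qa at an r of 0.785 (exact permutation p = 0.00354, adjusted p = 0.0213) and a rho of 0.713 (exact permutation p = 0.0200, adjusted p = 0.102), so the relation passed by r but not by rho. The r was 0.637 without control 2 and toxicant 4. For Serping1 that r was 0.356 (exact permutation p = 0.301, adjusted p = 0.428) and the rho 0.01 (exact permutation p = 0.991), and r was -0.676 without the same libraries.

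**Figure D4:**
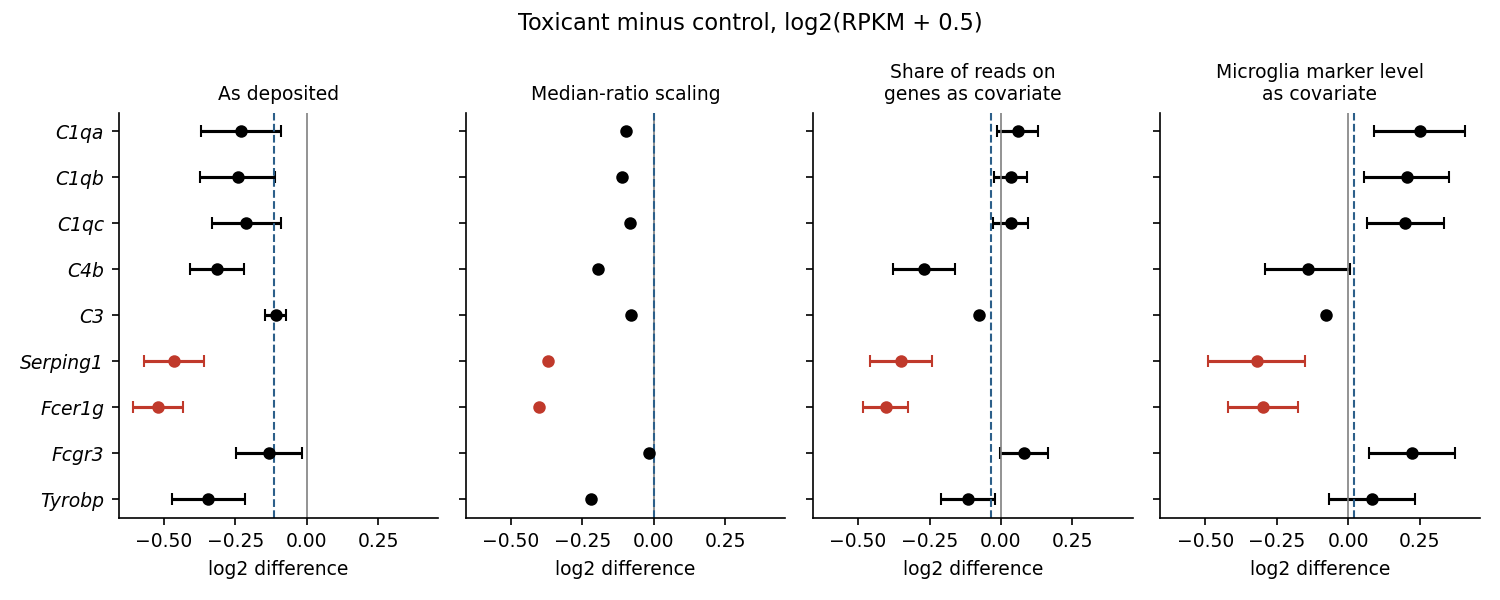
Log2 difference, toxicant minus control, for each gene under 4 settings, with SE bars, a grey line at 0 and a dashed line at the median of all tested genes. SE bars were not drawn for median-ratio scaling, nor for C3 with a covariate. Fcer1g and Serping1 (red) lie between -0.52 and -0.30 in every panel, while the C1q genes and Fcgr3 lie above 0 with either covariate.

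Serping1 and C4b are also made outside microglia, among others by astrocytes and cells of vessel walls. Astrocyte markers summed to 471 to 542 RPKM in toxicant and 512 to 579 RPKM in control libraries, with 9 of 12 lower (median log2 difference -0.15). Aldoc and Slc1a2, the 2 highest of them, had log2 differences of -0.20 ± 0.13 and 0.15 ± 0.14 (SE). Endothelial markers summed to 49.3 to 55.1 RPKM in toxicant and 58.0 to 67.4 RPKM in control libraries, without overlap, with 9 of 10 lower (median -0.25). Slc2a1 and Cldn5 were the highest of these, with log2 differences of -0.16 ± 0.10 and -0.31 ± 0.10 (SE). Mural and fibroblast markers, led by Vtn and Rgs5 (log2 differences -0.31 ± 0.09 and 0.31 ± 0.21), summed to 41.3 to 59.5 RPKM in toxicant and 47.4 to 68.9 RPKM in control libraries. The part of these cell types in the differences of Serping1 and C4b was not tested.

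The sums for other tissue were 471 to 647 RPKM in toxicant and 679 to 764 RPKM in control libraries for oligodendrocyte markers (led by Mbp), without overlap. Of these markers 7 of 8 were lower, with a median log2 difference of -0.51, beside -0.25 for the microglial markers. The sums were 603 to 721 RPKM in toxicant and 660 to 710 RPKM in control libraries for neuronal markers (led by Slc17a7 and Snap25). Of the neuronal markers 5 of 8 were lower (median log2 difference -0.08). Choroid plexus markers varied more between animals than between groups, from 15.8 to 1816 RPKM in toxicant and from 17.7 to 2907 RPKM in control libraries. Toxicant 2 and control 3 held the most. Neither library was the highest or lowest of its group for Serping1 or Fcer1g, except that toxicant 2 was the lowest toxicant library for Fcer1g.

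The other genes of these pathways were counted in 7 lists with 121 symbols, of which 50 passed the filter on low values. Of these 50, limma called 0 lower and 0 higher at an adjusted p under 0.05, and 14 were lower and 0 higher at an unadjusted p under 0.05, beside 17.0% and 3.33% of all tested genes. Lower means were seen for 38 of 50, beside 70.0% of all tested genes, and 29 of 50 lay below the median of all genes. For 3 of the 50, Itgam and Plcg2 among them, all toxicant libraries lay below every control, beside 2.03% of all tested genes. Plcg2, a phospholipase downstream of ITAM receptors, is named because of that count after its values were seen.

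Few initiating or terminal components were expressed above the filter. Of 13 genes of the classical and lectin routes only Masp1, a lectin-route protease, passed (0.658 ± 0.0665 RPKM in toxicant and 0.721 ± 0.0682 RPKM in control libraries). Colec12, a scavenger collectin, was the next highest and was at 0.469 ± 0.0654 and 0.393 ± 0.126 RPKM in the same order of groups. Of 10 alternative and terminal genes, Cfp and C8g passed. Cfp encodes properdin, which stabilises the alternative-route C3 convertase, and was at 3.54 ± 0.688 RPKM in toxicant and 2.57 ± 1.17 RPKM in control libraries (log2 difference 0.46 ± 0.22, limma adjusted p = 0.248). C8g, a subunit of the terminal complex, was at 0.492 ± 0.0968 RPKM in toxicant and 0.552 ± 0.0529 RPKM in control libraries.

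Of 22 regulators 14 passed the filter, 10 with a lower mean and 7 below the median of all genes, with a median log2 difference of -0.12. Clu, a secreted chaperone that inhibits the terminal complex, was at 162 ± 12.8 RPKM in toxicant and 207 ± 37.3 RPKM in control libraries (log2 difference -0.34 ± 0.12, limma adjusted p = 0.221). Vtn, which encodes vitronectin, had a log2 difference of -0.31 ± 0.09 (limma adjusted p = 0.205) and the neuronal gene Sez6l2 one of -0.30 ± 0.15 (limma adjusted p = 0.257).

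Of 14 receptor genes 8 passed the filter, 6 with a lower mean, and the median was -0.21. Itgam and Itgb2 encode the chains of complement receptor 3, through which microglia take up C3-tagged material. Itgam was at 2.35 ± 0.330 RPKM in toxicant and 3.13 ± 0.207 RPKM in control libraries (-0.36 ± 0.09, limma adjusted p = 0.170). Itgb2 was at 0.855 ± 0.101 RPKM in toxicant and 1.19 ± 0.312 RPKM in control libraries (-0.30 ± 0.12, limma adjusted p = 0.225). The uptake receptor Lrp1 (-0.19 ± 0.10) and its partner calreticulin, Calr (-0.12 ± 0.12), were the most abundant of this list. The receptors for the C3 and C5 fragments, C3ar1 and C5ar1, were under the filter, with means of 29.7 and 14.2 reads per library.

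Among other Fc receptors, 3 of 11 passed the filter, all with lower means (median -0.29). The Fc receptor-like gene Fcrls was at 4.98 ± 0.787 RPKM in toxicant and 6.27 ± 0.873 RPKM in control libraries (-0.31 ± 0.12, limma adjusted p = 0.223). The neonatal Fc receptor gene Fcgrt was at 4.62 ± 0.235 RPKM in toxicant and 5.85 ± 1.37 RPKM in control libraries (-0.29 ± 0.12, limma adjusted p = 0.234). Fcgr2b, the inhibitory IgG receptor and a close relative of Fcgr3 in sequence, was at 0.247 ± 0.0357 RPKM in toxicant and 0.309 ± 0.0288 RPKM in control libraries. Fcgr4 averaged 2.36 reads per library. Reads shared between these related genes may have been split in the authors' counting.

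Of 43 genes for ITAM partners and signalling, 16 passed the filter, with 14 lower means and a median of -0.16. The exchange factor gene Vav1 was at 0.600 ± 0.128 RPKM in toxicant and 0.815 ± 0.124 RPKM in control libraries (-0.26 ± 0.10, limma adjusted p = 0.223). Sirpa, an inhibitory receptor also abundant in neurons, and Src had log2 differences of -0.23 ± 0.11 and -0.22 ± 0.13. Syk, the kinase that ITAMs recruit, was under the filter at 0.332 ± 0.0468 RPKM in toxicant and 0.328 ± 0.0203 RPKM in control libraries. Like Trem2 and Fcgr2b above, it is given for its role.

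Neuronal relatives of C1q that act at synapses, with the same globular domain, did not share a direction, with 3 of 6 tested genes lower and 3 higher (median -0.03). C1ql2, expressed in dentate granule cells, was at 30.6 ± 4.42 RPKM in toxicant and 43.5 ± 12.5 RPKM in control libraries (-0.46 ± 0.19, limma adjusted p = 0.227). C1ql3 was at 45.0 ± 6.63 RPKM in toxicant and 43.4 ± 2.85 RPKM in control libraries (0.04 ± 0.11, limma adjusted p = 0.794). C1ql1 had a log2 difference of -0.17 ± 0.14 (limma adjusted p = 0.417).

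**Figure D5:**
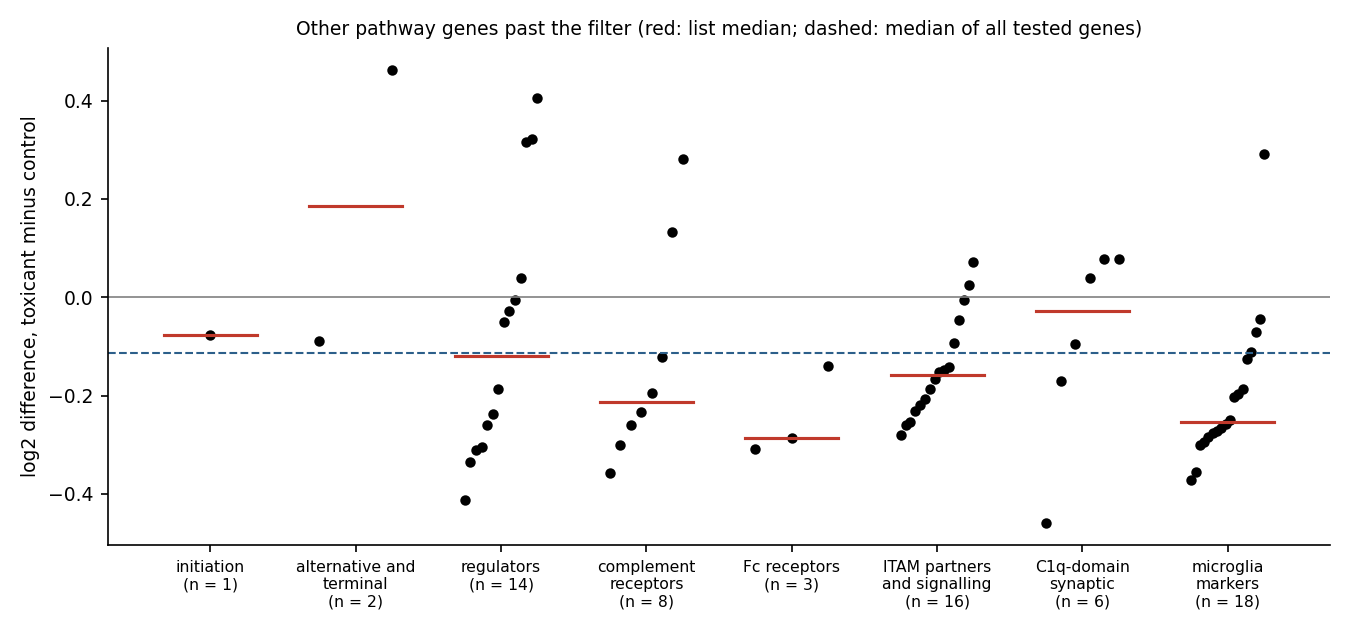
Log2 difference, toxicant minus control, for each gene past the filter in the 7 pathway lists and the microglial marker list (points, ordered within a list by value), with the list median (red) and the median of all tested genes, -0.11 (dashed). Microglial markers and complement receptors lie mostly below the dashed line, and the C1q-domain genes lie on both sides of it.

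The calls depended on control 2. Without this library limma called 3779 of 13468 genes lower (28.1%) and 1153 higher (8.56%) at an adjusted p under 0.05, and 1604 genes lay below every control in all toxicant libraries (11.9%). In that fit all of the 8 tested genes except Fcgr3 were among those called lower, which is no test of them since they were selected on the same libraries, and Serping1 and C4b did not overlap between groups, as Fcer1g did not with control 2 included. Read as a description, the log2 difference was then -0.57 for Fcer1g, -0.54 for Serping1, -0.36 for C1qa and -0.19 for Fcgr3. Of the 50 other pathway genes, 19 were then called lower and 3 higher.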

How the data were processed

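RNA was measured in whole hippocampi of 6 toxicant and 6 control mice. Per the labels' protocols, polyadenylated RNA was selected, libraries were made with a NEBNext Ultra kit and sequenced as single reads. The deposited table held 1 RPKM value per gene and library, per the file headers. Aligner, counter, strand setting and genome build: not given in the sources used here.

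Columns were matched to samples by the code in the description. Multiplied by GENCODE M21 exon length, 98.3% to 98.4% of the values of a library were whole reads within 0.05 reads, which gave the depth and the reads per gene. Genes that averaged 0.5 RPKM or more were tested with limma 3.58.1 (R 4.3.3) on log2(RPKM + 0.5), with a mean-variance trend, two-sided, without covariates. P-values were adjusted by Benjamini-Hochberg over all tested genes, and 0.05 was the threshold. A filter on the mean can pass a gene through its higher group. The fit was tested on simulated reads that had no shift shared by most genes and no library unlike its group. That test therefore does not cover these features of the real libraries. Some named genes are not reported here.

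The 9 genes and all lists were chosen with earlier results of these data known. Named genes were the 9, the 2 highest and the 2 of smallest p in each pathway list, the 2 highest of each cell type list, and the 5 most like Fcer1g, Serping1 and C1qa. Genes named for a role are said to be so, and some (C1ra, C1s1, C4a, C3ar1, C5ar1, Fcgr4) were added as direct targets, relatives or receptors of the 9. Alternatives were other pseudocounts (0.1 and 1 RPKM), filters and scalings, all 12 columns, a replicate block, 2 covariates and leaving out each library.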

Additional observations from a re-analysis of the deposited data

Results flagged for a closer look

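Of 92 groups of libraries looked at for the genes named from the pathway and cell type lists and the 9 genes themselves, 6 had a library far from the others of its group, where chance gives about 1 in 20, or 4.6 groups. None of these 6 concerned the 9 genes. Vtn was at 17.9 RPKM in toxicant 6, with the other toxicant libraries at 15.3 to 16.2 RPKM. Rgs5 was at 8.42 RPKM in toxicant 1, with the others at 12.4 to 13.2 RPKM. Ttr, a choroid plexus gene, was at 1760 RPKM in toxicant 2 (others 12.9 to 55.7 RPKM) and at 2840 RPKM in control 3 (others 13.6 to 629 RPKM). Kl, another choroid plexus gene, was at 9.23 RPKM in toxicant 2 (others 1.27 to 1.87 RPKM) and at 11.1 RPKM in control 3 (others 1.86 to 3.33 RPKM).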

How the results depend on the processing

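Fcer1g, Serping1 and C4b kept a lower mean in all 21 alternatives, from -0.57 to -0.30, from -0.61 to -0.32 and from -0.38 to -0.14 on the log2 scale, and C3 in all 20 that gave it a value (quantile normalization gave none). With the on-gene share of reads as covariate, the differences of C1qa (0.0583), C1qb (0.0336), C1qc (0.0335) and Fcgr3 (0.0798), each smaller than its SE, had the opposite sign. So did those of C1qa (0.25), C1qb (0.21), C1qc (0.20), Fcgr3 (0.22) and Tyrobp (0.0842), and the median of the 9 (0.0842 against -0.24), with the microglial marker level as a covariate. The cause was not tested. The number of genes past the threshold was 0, but 1 with a pseudocount of 0.1, 9 with the 12 columns as deposited, 11 at an adjusted threshold of 0.1 and 0 to 4932 when each library was left out, the highest without control 2. Genes below every control in all toxicant libraries numbered 274, but 94 with median-ratio scaling, 148 with quantile normalization and 284 to 1604 when each library was left out, with 1604 without control 2, 414 without toxicant 1 and 430 without toxicant 3 (fewer libraries have to be separated). The list medians that changed sign were those of initiation genes (0.00754 with no filter, 0.00119 with median-ratio scaling), alternative and terminal genes (-0.0213 with no filter, -0.0877 and -0.13 with the share and microglial covariates), Fc receptors (0.0825 with the microglial covariate) and C1q-domain genes. The last was 0.0555 with no filter, 0.0908 with median-ratio scaling, 0.00848 with quantile normalization, 0.0684 and 0.0885 with the covariates and -0.10 to 0.0399 when each library was left out. The Fc receptor median was -0.00959 with no filter, and the ITAM median -0.0286 with no filter, -0.0674 with median-ratio scaling, -0.0893 with the share covariate and -0.0158 with the microglial covariate. Same-numbered libraries of the 2 groups correlated between -0.30 and 0.62, which cannot decide whether the numbers pair the samples. Among the controls, only control 1 correlated best with the toxicant library of its own number. With the replicate block 0 genes passed and the median of the 9 was -0.28. C3 (8 to 28 reads) and the genes under the filter are limited by depth.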
